A study of Homo sapiens and Mus musculus with 8 samples.

Results

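The genes described here are the cadherins and protocadherins of the mouse melanoma line B16N, taken as every gene of the 3 B16N comparisons whose symbol starts with Pcdh or with Cdh and a digit. There were 75 such genes among the 15966 with a row in at least 1 of the comparisons, 70 after 2 weeks of UV, 72 after 5 weeks of UV and 73 in a clone made to overexpress Orai1. RNA-seq was done on 1 sample per condition. The control was untreated wild-type B16N labelled day 0, and the UV samples were wild-type B16N cells exposed to UV and labelled week 2 and week 5. The Orai1 sample, also labelled day 0, was transfected with Orai1 tagged with cyan fluorescent protein, selected with G418, sorted and grown from individual clones. It stands for 1 clone, so what Orai1 does and how this clone differs from the parental population cannot be told apart. The UV samples had weeks of culture that the day 0 control did not have, so UV and time in culture cannot be told apart either. The series also holds 2 human melanoma lines.

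Cadherins are adhesion proteins whose extracellular repeats bind Ca2+ and join neighbouring cells by binding their like. Classical cadherins (types I and II) bind p120-catenin and beta-catenin through their cytoplasmic tails, and a shift from E-cadherin (Cdh1), which ties melanocytes to keratinocytes, to N-cadherin (Cdh2) is a known feature of melanoma. Protocadherins lack the catenin binding sites. Some stand alone in the genome, and the alpha, beta and gamma protocadherins lie in neighbouring arrays from which each neuron expresses a few members as a surface identity code. Each alpha or gamma transcript joins its own first exon to exons common to its array, whereas a beta gene is a single coding exon.

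The tables hold the authors' comparisons of treated samples with the control and give no expression level, read count or replicate check, and the p-values compare libraries rather than conditions. Changes are log2 values of treated against control, with the standard error (SE) implied by the deposited test statistic. A change passed where the Benjamini-Hochberg adjusted p, computed over all rows of that comparison from the deposited p-values, was under 0.05. In a bulk sample, fewer cells that express a gene and less RNA per cell cannot be told apart.

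Members whose values were identical to those of another symbol form 2 kinds. Cdh1 (with Suclg2), Cdh2 (with Olfr701), Cdh3 (with Shmt1), Cdh13 (with Sec61g), Cdh26 (with Pfn1), Pcdh11x (with Ddb1) and the imprecise Pcdha11 (with Katnal1) had the same partner in all 3 of the authors' deposited tables. The partners are unrelated genes, and the tables do not tell which of the paired genes a value belongs to. The other sharing members, 12 at 2 weeks, 13 at 5 weeks and 14 in the clone, had an SE of at least 1.86, with up to 743 other symbols at the same values in the authors' deposited tables. None of them passed. They were Cdh6, Cdh10, Cdh15, Cdh22, Cdh23, Pcdh9, Pcdha2, Pcdha4, Pcdha6, Pcdhb6, Pcdhga6, Pcdhga7, Pcdhga9, Pcdhga10, Pcdhga11, Pcdhga12, Pcdhgc3, Pcdhgc4 and Pcdhgc5, each in at least 1 table. A member was left out of the counts of a comparison in which its value was shared.

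**Figure D1:**
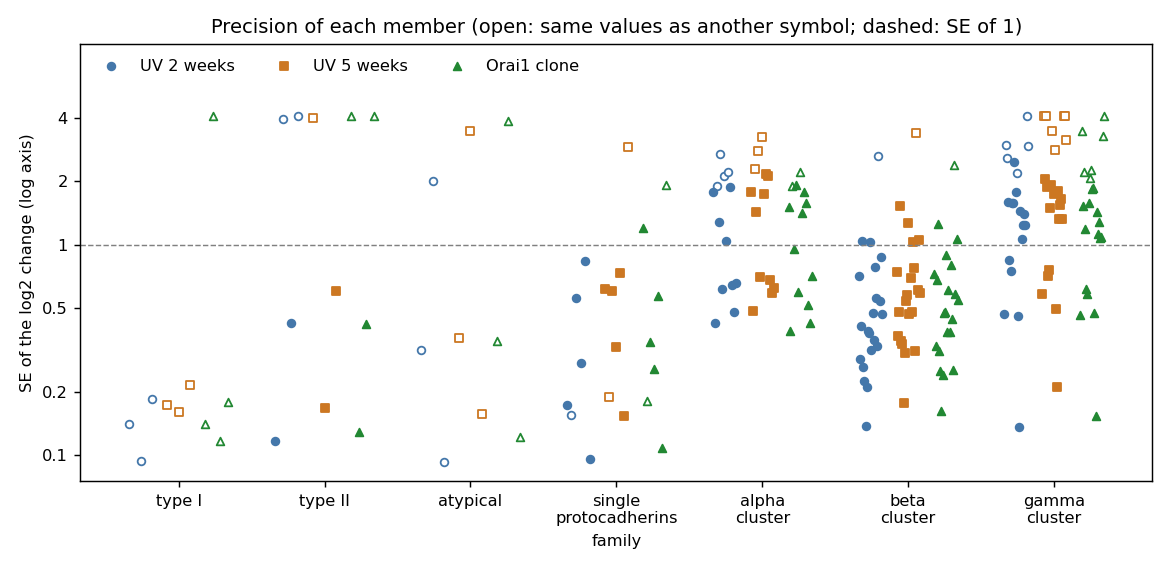
SE of the log2 change (log axis) of each member by family and comparison, with open points for members whose values another symbol also had and a dashed line at an SE of 1. Cadherins of type I lie between 0.094 and 0.22 except Cdh15 in the clone, and most alpha and gamma members lie above 1.

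Precision differed between the families, as the plot of SE by family shows. In the authors' deposited tables the median SE of the 21 beta genes was 0.41 at 2 weeks, 0.57 at 5 weeks and 0.48 in the clone, beside 0.31, 0.38 and 0.32 for all rows. The alpha genes had a median SE of 1.28, 1.74 and 1.41, and the gamma genes one of 1.505, 1.77 and 1.43, in the same order in the authors' deposited tables. A doubling or halving of a typical alpha or gamma gene could therefore not be detected.

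The clone had the most changed members. Of members with values of their own, 3 of 51 passed at 2 weeks of UV (1 higher, 2 lower), 3 of 52 at 5 weeks (all lower) and 18 of 52 in the clone (4 higher, 14 lower). The share of all rows that passed was 7.67% at 2 weeks (3.13% higher, 4.55% lower), 4.78% at 5 weeks (3.07% higher, 1.71% lower) and 22.0% in the clone (10.3% higher, 11.6% lower). Among rows with values of their own it was 8.99%, 5.51% and 25.9%. The members' shares were 5.88%, 5.77% and 34.6%, so those of the UV samples lay near the background. Of members with an SE of at most 1 and values of their own, 3 of 35, 3 of 33 and 17 of 35 passed, beside 10.1%, 6.02% and 28.5% of all such rows. With a change of at least 2-fold required, 0 of 51, 2 of 52 and 14 of 52 members with values of their own passed. Of all rows, those with shared values included, 0.348%, 1.81% and 6.79% did so. The 2-fold share among all rows with values of their own was not computed. The median change of all members with values of their own was -0.17, -0.68 and -0.59 on the log2 scale. That of all rows with values of their own was 0.020, 0.0069 and 0.033. With an SE of at most 1 also required, the members' medians were -0.16, -0.40 and -0.39, beside 0.016, -0.0019 and 0.021 for all such rows. The 3 comparisons have 1 control in common, so a chance value of the control enters all of them.

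Among type I classical cadherins, Cdh1 and Cdh3 did not pass in any comparison, and the value listed for Cdh2 was lower in all 3. Cdh2, whose protein joins melanoma cells to fibroblasts and endothelium, stood at -0.33 (SE 0.094, adjusted p = 0.0105) at 2 weeks, -0.49 (SE 0.16, adjusted p = 0.0466) at 5 weeks and -1.16 (SE 0.12, adjusted p = 5.04e-21) in the clone in the authors' deposited tables. All of these values are also those of the olfactory receptor gene Olfr701, and the one at 5 weeks no longer passed with the median change of precise rows, those with an SE of at most 0.3, set to 0 (Benjamini-Hochberg adjusted p = 0.0543 from the authors' deposited table, a normal test across all genes). Cdh1, the E-cadherin gene, stood at -0.064 (SE 0.14), 0.086 (SE 0.17) and 0.22 (SE 0.14) at 2 weeks, 5 weeks and in the clone in the authors' deposited tables, values shared with Suclg2. Cdh3, the P-cadherin gene, stood at -0.12 (SE 0.18), -0.037 (SE 0.22) and -0.18 (SE 0.18) in the same order in the authors' deposited tables, shared with Shmt1. The muscle cadherin gene Cdh15 had a row in the clone alone, with an SE of 4.08 and 743 other symbols at the same values in the authors' deposited table.

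**Figure D2:**
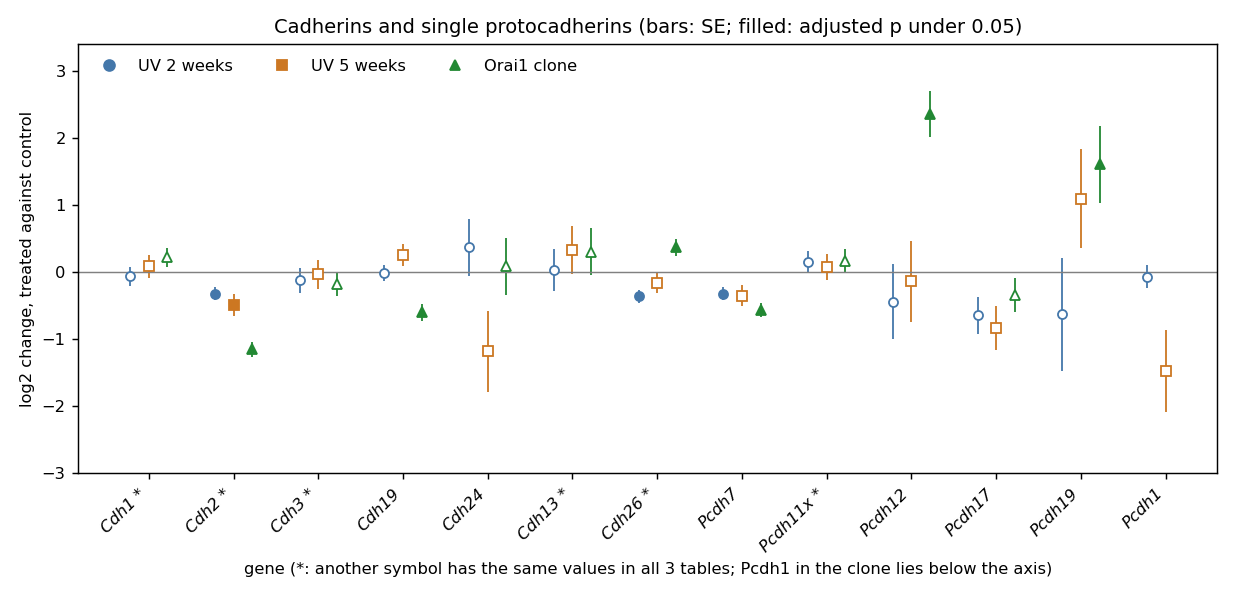
Log2 change with SE of the cadherins and single protocadherins that had an SE of at most 1 in at least 1 comparison, with filled points for an adjusted p under 0.05 and an asterisk for values shared with another symbol in all 3 tables. Cdh19 and Pcdh7 are lower and Pcdh12 and Pcdh19 higher in the clone, while Pcdh1 in the clone (-9.18) lies below the axis and is not drawn.

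Of type II classical cadherins, 5 of 13 listed genes had a row, and Cdh19 and Cdh24 had values of their own in every table. Cdh19, a cadherin of neural crest and Schwann cell precursors, was near control after UV, at -0.013 (SE 0.12) at 2 weeks and 0.25 (SE 0.17, adjusted p = 0.618) at 5 weeks, and fell to -0.60 (SE 0.13, adjusted p = 3.38e-05) in the clone in the authors' deposited tables. Cdh24 stood at 0.37 (SE 0.42), -1.19 (SE 0.61, adjusted p = 0.376) and 0.085 (SE 0.42) at 2 weeks, 5 weeks and in the clone and did not pass in the authors' deposited tables. The remaining Cdh6, Cdh10 and Cdh22 were absent from at least 1 table and, where listed, had an SE of at least 3.95 and values shared with at least 31 other symbols in the authors' deposited tables. Cdh5, the endothelial cadherin gene, and Cdh11, a cadherin of mesenchymal cells, were among the 8 listed type II genes without a row here.

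The atypical cadherins with a row were Cdh13, Cdh23 and Cdh26. Cdh13 encodes T-cadherin, which is held in the membrane by a lipid anchor, and stood at 0.030 (SE 0.31), 0.33 (SE 0.36) and 0.30 (SE 0.35) at 2 weeks, 5 weeks and in the clone in the authors' deposited tables, shared with Sec61g. The value listed for Cdh26 was lower at 2 weeks (-0.36, SE 0.092, adjusted p = 0.00223), did not pass at 5 weeks (-0.16, SE 0.16, adjusted p = 0.881) and was higher in the clone (0.37, SE 0.12, adjusted p = 0.0149) in the authors' deposited tables. It is equally the value listed for the actin-binding profilin gene Pfn1. Cdh23, whose protein forms the tip links of inner ear hair cells with that of Pcdh15, had an SE of at least 2.00 and shared values in all 3 of the authors' deposited tables, with Guca1a at 2 weeks and with 16 and 107 other symbols at 5 weeks and in the clone.

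Single protocadherins moved in both directions in the clone. Of 5 with values of their own there, Pcdh12 and Pcdh19 rose and Pcdh1 and Pcdh7 fell. At 2 weeks Pcdh7 alone passed, lower, and at 5 weeks none did (3 of 5 had an unadjusted p under 0.05). All rows with values of their own passed in 25.9% of cases in the clone, 8.99% at 2 weeks and 5.51% at 5 weeks. The share of all rows with an unadjusted p under 0.05 was not counted. Pcdh7, whose longest protein form binds protein phosphatase 1, stood at -0.33 (SE 0.095, adjusted p = 0.0122) at 2 weeks, -0.35 (SE 0.15, adjusted p = 0.230) at 5 weeks and -0.57 (SE 0.11, adjusted p = 2.62e-06) in the clone in the authors' deposited tables. Its SE was among the smallest of all members, and its 3 values lay on the same side of 0.

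Pcdh1, an adhesion gene of airway epithelium and other surfaces, showed the lowest value of any member. It stood at -0.074 (SE 0.17, adjusted p = 0.959) at 2 weeks, -1.48 (SE 0.61, adjusted p = 0.192) at 5 weeks and -9.18 (SE 1.20, adjusted p = 8.25e-13) in the clone in the authors' deposited tables. The fitted size in the clone has an SE above 1 and depends on how the authors' test treats libraries with few or no reads, so only the direction is read from it. Its SE was smallest at 2 weeks and largest in the clone.

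Pcdh12, the vascular protocadherin gene of endothelium and placenta, had the highest passing value. It stood at -0.44 (SE 0.56) at 2 weeks, -0.14 (SE 0.60) at 5 weeks and 2.36 (SE 0.35, adjusted p = 3.15e-10) in the clone in the authors' deposited tables. The endothelial marker Pecam1 had an SE of at least 2.58 in all 3 of the authors' deposited tables and did not pass. Kdr had a row at 5 weeks alone, with an SE of 4.08 in the authors' deposited table, and Tek and Cldn5 had no row here. Whether endothelial RNA has a part in the Pcdh12 value was not tested.

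Pcdh19, an X-linked gene tied to epilepsy in girls, stood at -0.63 (SE 0.84), 1.09 (SE 0.74, adjusted p = 0.628) and 1.60 (SE 0.57, adjusted p = 0.0268) at 2 weeks, 5 weeks and in the clone in the authors' deposited tables. It was high in the clone, and its value at 5 weeks was of the same sign within a wide SE. Pcdh17 stood at -0.65 (SE 0.27, adjusted p = 0.158), -0.83 (SE 0.33, adjusted p = 0.148) and -0.34 (SE 0.26, adjusted p = 0.428) in the same order in the authors' deposited tables, below 0 throughout and not passing. Pcdh11x, on the X chromosome, stayed between 0.075 and 0.16 in the authors' deposited tables with values shared with Ddb1. Pcdh9 had rows at 5 weeks (2.51, SE 2.91) and in the clone (3.43, SE 1.92, adjusted p = 0.230) in the authors' deposited tables and did not pass. These Pcdh9 values were also those of 20 other symbols at 5 weeks and of Prrg1 in the clone.

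The beta protocadherins made up 1 of the 3 members that passed at 2 weeks, all 3 at 5 weeks and 11 of the 18 in the clone. Of 20 genes with values of their own, 1 passed at 2 weeks (higher), 3 at 5 weeks (all lower) and 11 in the clone (9 lower, 2 higher), and the median changes were 0.092, -0.62 and -0.89. All rows with values of their own passed in 8.99%, 5.51% and 25.9% of cases in these comparisons, with medians of 0.020, 0.0069 and 0.033. Beta genes are similar in sequence to one another, and how reads that fit several of them were counted is not given in the sources used here, so the split between neighbours in the family is uncertain.

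**Figure D3:**
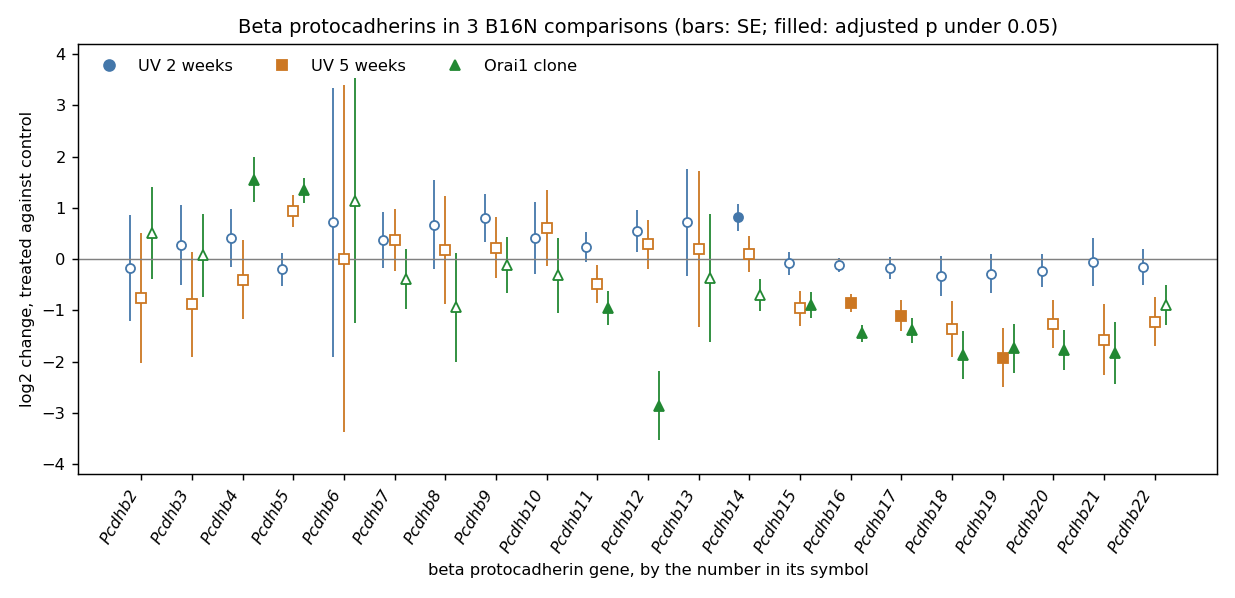
Log2 change with SE of the 21 beta protocadherins, ordered by the number in the symbol, with filled points for an adjusted p under 0.05. Pcdhb15 to Pcdhb22 lie below 0 in each comparison, between -0.32 and -0.053 at 2 weeks and at or below -0.86 at 5 weeks and in the clone, while Pcdhb4 and Pcdhb5 lie above 0 in the clone.

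Pcdhb16 was the most precisely measured beta gene. It stood at -0.10 (SE 0.14, adjusted p = 0.947) at 2 weeks, -0.86 (SE 0.18, adjusted p = 1.20e-04) at 5 weeks and -1.45 (SE 0.16, adjusted p = 3.53e-17) in the clone in the authors' deposited tables. Pcdhb17 stood at -0.17 (SE 0.21), -1.10 (SE 0.30, adjusted p = 0.0101) and -1.39 (SE 0.24, adjusted p = 1.80e-07) in the same order in the authors' deposited tables. Pcdhb19 stood at -0.28 (SE 0.38), -1.92 (SE 0.57, adjusted p = 0.0225) and -1.74 (SE 0.48, adjusted p = 0.00223) in the authors' deposited tables. Each of these 3 genes was within 1 SE of control at 2 weeks and fell both at 5 weeks and in the clone.

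Their neighbours by number had similar values. The 8 genes from Pcdhb15 to Pcdhb22, a run picked after the values were seen and so given with no test, had values from -0.32 to -0.053 (median -0.16) at 2 weeks, from -1.92 to -0.86 (median -1.24) at 5 weeks and from -1.87 to -0.89 (median -1.59) in the clone in the authors' deposited tables. None of the 8 passed at 2 weeks, 3 passed at 5 weeks and 7 in the clone, all lower. In the clone Pcdhb15 (-0.89, SE 0.25), Pcdhb18 (-1.87, SE 0.47), Pcdhb20 (-1.77, SE 0.39) and Pcdhb21 (-1.82, SE 0.61) fell, and Pcdhb22 (-0.89, SE 0.39, adjusted p = 0.0847) did not pass in the authors' deposited table. At 5 weeks Pcdhb15 (-0.96, adjusted p = 0.0849), Pcdhb18 (-1.36, adjusted p = 0.158), Pcdhb20 (-1.27, adjusted p = 0.108), Pcdhb21 (-1.57, adjusted p = 0.243) and Pcdhb22 (-1.22, adjusted p = 0.145) did not pass in the authors' deposited table, at SEs from 0.34 to 0.69.

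The 13 genes from Pcdhb2 to Pcdhb14 were mixed. They had 11 of 13 values above 0 at 2 weeks, 9 at 5 weeks and 5 in the clone, with medians of 0.42, 0.18 and -0.32 in the authors' deposited tables. Pcdhb4 stood at 0.42 (SE 0.56), -0.40 (SE 0.78) and 1.55 (SE 0.44, adjusted p = 0.00348) at 2 weeks, 5 weeks and in the clone in the authors' deposited tables. Pcdhb5 stood at -0.20 (SE 0.33), 0.94 (SE 0.31, adjusted p = 0.0535) and 1.34 (SE 0.25, adjusted p = 1.86e-06) in the same order in the authors' deposited tables. These were the 2 beta genes that rose in the clone, next to one another by number and opposite in direction to the Pcdhb15 to Pcdhb22 run.

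Pcdhb12 had the lowest value of the beta genes. It stood at 0.55 (SE 0.41, adjusted p = 0.669) at 2 weeks, 0.29 (SE 0.48) at 5 weeks and -2.86 (SE 0.68, adjusted p = 2.70e-04) in the clone in the authors' deposited tables. Pcdhb11 stood at 0.24 (SE 0.29), -0.49 (SE 0.37) and -0.96 (SE 0.33, adjusted p = 0.0202) in the same order in the authors' deposited tables. Pcdhb14 was the beta gene that rose at 2 weeks (0.82, SE 0.26, adjusted p = 0.0294), and stood at 0.11 (SE 0.35) at 5 weeks and -0.70 (SE 0.31, adjusted p = 0.0987) in the clone in the authors' deposited tables. Pcdhb2, Pcdhb3, Pcdhb6 (which shared its values with other symbols), Pcdhb7, Pcdhb8, Pcdhb9, Pcdhb10 and Pcdhb13 did not pass in any comparison.

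In the gamma array, 1 of 15 genes with values of their own fell at 2 weeks and 2 of 14 fell in the clone. None of 15 passed at 5 weeks. These shares of 6.67%, 14.3% and 0% lay below the 8.99%, 25.9% and 5.51% of all rows with values of their own. At 5 weeks none of the 15 had an unadjusted p under 0.05. These shares include many genes with wide SEs. Each comparison held 5 gamma genes with values of their own and an SE of at most 1. The clone had 2 such genes passing, the 2-week sample 1 and the 5-week sample none. Among all rows limited in the same way, 28.5%, 10.1% and 6.02% passed, in that order. With so few genes, it cannot be told whether gamma genes changed less often than other genes. Pcdhgb2 was by far the most precise gamma gene and stood at -0.43 (SE 0.14, adjusted p = 0.0270) at 2 weeks, -0.31 (SE 0.21, adjusted p = 0.636) at 5 weeks and -1.03 (SE 0.15, adjusted p = 6.26e-10) in the clone in the authors' deposited tables. Pcdhgb1 stood at -0.70 (SE 0.46, adjusted p = 0.555), -0.21 (SE 0.50) and -1.21 (SE 0.47, adjusted p = 0.0464) in the same order in the authors' deposited tables. The call for Pcdhgb1 in the clone was lost with the median change of precise rows set to 0 (adjusted p = 0.0507 from the authors' deposited table).

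Most other gamma genes had wide SEs. Pcdhga1 stood at -0.66 (SE 0.47), -1.11 (SE 0.58) and -0.34 (SE 0.46) at 2 weeks, 5 weeks and in the clone in the authors' deposited tables. Pcdhga3 stood at -1.62 (SE 0.84), 0.081 (SE 0.71) and 0.078 (SE 0.62) in the same order in the authors' deposited tables. For Pcdhga4 the values were -1.21 (SE 0.75), -0.59 (SE 0.75) and 0.11 (SE 0.58) in the authors' deposited tables. None of these values passed. Pcdhga5 stood at -3.40 (SE 1.58, adjusted p = 0.231), -1.94 (SE 1.501, adjusted p = 0.727) and -3.89 (SE 1.58, adjusted p = 0.0616) at 2 weeks, 5 weeks and in the clone in the authors' deposited tables. An SE above 1 was found for 15 of 20 gamma genes after 2 weeks, for 17 of 22 after 5 weeks and for 16 of 21 in the clone. The C-type gamma genes, which are expressed in most neurons rather than by choice, were Pcdhgc3 with a row at 5 weeks alone and Pcdhgc4 and Pcdhgc5 in every table, with SEs of at least 2.96 and values shared with at least 13 other symbols in the authors' deposited tables.

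None of the alpha genes passed in any comparison by the table-wide Benjamini-Hochberg adjustment. Of all rows with values of their own, 8.99%, 5.51% and 25.9% passed at 2 weeks, 5 weeks and in the clone. An unadjusted p under 0.05 was found after 2 weeks for 0 of 9 with values of their own, after 5 weeks for 1 of 10 and in the clone for 2 of 11. The share of all rows with such a p was not counted, so no unadjusted count given here has a background beside it. The smallest adjusted p in the clone was that of Pcdha10, which stood at 0.37 (SE 0.42), 0.43 (SE 0.48) and 0.93 (SE 0.39, adjusted p = 0.0714) at 2 weeks, 5 weeks and in the clone in the authors' deposited tables. Pcdha8 stood at 0.12 (SE 0.64), 0.46 (SE 0.68) and 1.16 (SE 0.52, adjusted p = 0.0995) in the same order, and Pcdha9 at -0.80 (SE 0.48, adjusted p = 0.467), -1.18 (SE 0.59, adjusted p = 0.355) and -0.31 (SE 0.42, adjusted p = 0.775), in the authors' deposited tables. Pcdhac2, the C-type alpha gene with a row, stood at -0.34 (SE 0.66), 0.80 (SE 0.62) and -1.13 (SE 0.71, adjusted p = 0.309) in the authors' deposited tables. Among these better measured alpha genes, values lay on both sides of 0.

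The treated samples were also set against each other by a normal test of the difference of their log2 changes, in which the control value cancels. The test adds both squared SEs, so the spread of the control stays in its SE. Among members unshared in both tables, 1 of 50 differed between 5 and 2 weeks of UV, 10 of 49 between the clone and 2 weeks (8 lower and 2 higher in the clone) and 4 of 51 between the clone and 5 weeks (3 lower, 1 higher). Over all rows, those with shared values included, 3.33% (2.05% higher, 1.28% lower), 11.7% (4.81% higher, 6.86% lower) and 5.35% (1.27% higher, 4.08% lower) differed in these 3 tests, in the same order. The shares among all unshared rows were not computed.

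**Figure D4:**
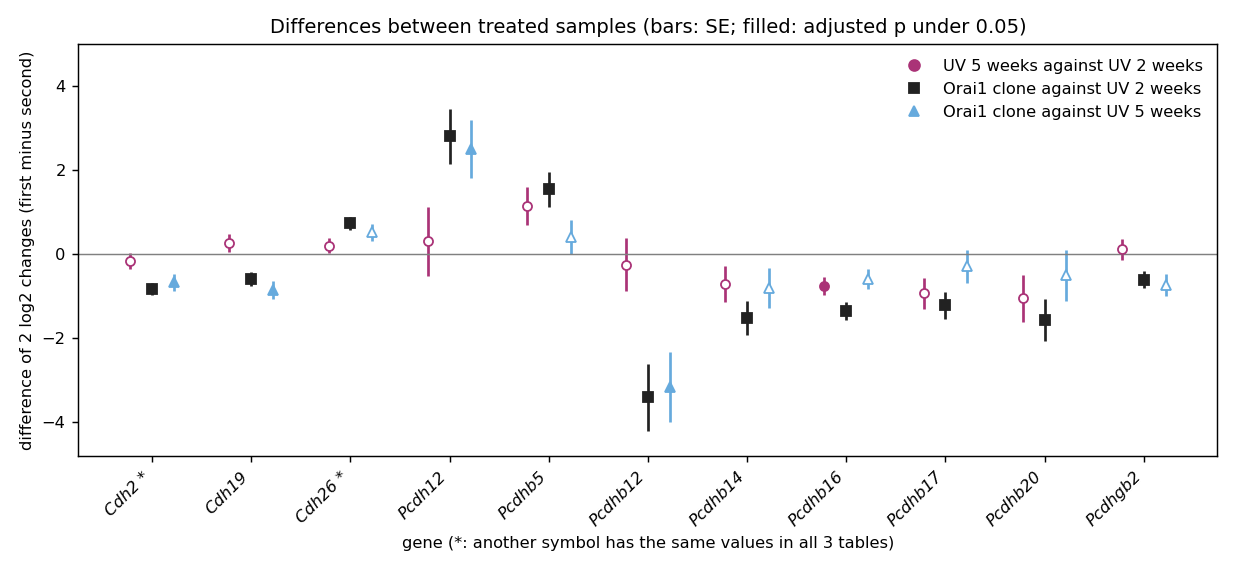
Difference of log2 changes (first sample minus second) with SE for the members that differed in at least 1 of 3 tests, with filled points for an adjusted p under 0.05 and an asterisk for values shared with another symbol. Pcdhb12 and Cdh19 are lower and Pcdh12 higher in the clone against both UV samples, Pcdhb16 is the member that differed between the UV times, and Pcdh1 (-9.11 and -7.70 for the clone) is not drawn.

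Pcdhb16 was lower at 5 than at 2 weeks of UV by a difference of -0.76 (SE 0.22, adjusted p = 0.0279) in the authors' deposited tables. Pcdhb17 (difference -0.93, SE 0.37, adjusted p = 0.189), Pcdhb19 (-1.64, SE 0.69, adjusted p = 0.241) and Pcdhb5 (1.14, SE 0.45, adjusted p = 0.189) did not pass between the UV times in the authors' deposited tables. That these genes passed or nearly passed at 5 weeks and not at 2 weeks is therefore not shown to be a difference between the times.

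Against 2 weeks of UV, the clone was lower in Pcdhb16 (-1.34, SE 0.21, adjusted p = 2.00e-08), Pcdhb17 (-1.22, SE 0.32), Pcdhb20 (-1.55, SE 0.50), Pcdhb12 (-3.40, SE 0.79) and Pcdhb14 (-1.51, SE 0.41) in the authors' deposited tables. Pcdhgb2 (-0.60, SE 0.21, adjusted p = 0.0324), Cdh19 (-0.59, SE 0.17, adjusted p = 0.00876) and Pcdh1 (adjusted p = 5.76e-12) were lower too, and Pcdh12 (2.80, SE 0.65) and Pcdhb5 (1.54, SE 0.41) higher in the authors' deposited tables. Of values shared with another symbol, Cdh2 was lower (-0.83, SE 0.15, adjusted p = 1.45e-06) and Cdh26 higher (0.73, SE 0.15, adjusted p = 5.12e-05) in the clone in the authors' deposited tables. Of these beta genes, Pcdhb12, Pcdhb16, Pcdhb17 and Pcdhb20 had also fallen in the clone against control, and Pcdhb14 had risen at 2 weeks.

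Against 5 weeks of UV, Pcdhb12 (-3.15, SE 0.83, adjusted p = 0.00489), Cdh19 (-0.86, SE 0.21, adjusted p = 0.00218) and Pcdh1 (adjusted p = 1.11e-06) were lower and Pcdh12 was higher (2.50, SE 0.70, adjusted p = 0.00956) in the clone in the authors' deposited tables. Pcdhb16 (-0.58, SE 0.24, adjusted p = 0.180), Pcdhb17 (-0.28, SE 0.39, adjusted p = 0.9997) and Pcdhb5 (0.40, SE 0.40, adjusted p = 0.972) did not pass in this test in the authors' deposited tables. The value listed for Cdh2 was lower in the clone by a difference of -0.67 (SE 0.20, adjusted p = 0.0187) in the authors' deposited tables.

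Catenins and other partners link cadherins to actin and neighbouring junctions. Of list members with values of their own, 3 of 16 fell at 2 weeks, at 5 weeks 1 of 15 fell, and in the clone 2 rose and 2 fell of 16, with medians of -0.16, -0.18 and -0.20. All rows with values of their own passed in 8.99%, 5.51% and 25.9% of cases, which the shares of the catenin list at 5 weeks and in the clone lie near. Ctnnd1, whose p120-catenin keeps classical cadherins at the cell surface, fell in every comparison, with log2 changes of -0.35 (SE 0.083, adjusted p = 9.96e-04) at 2 weeks, -0.60 (SE 0.15, adjusted p = 0.00253) at 5 weeks and -0.51 (SE 0.11, adjusted p = 8.98e-05) in the clone in the authors' deposited tables. Ctnnb1, the beta-catenin gene, stood at 0.22 (SE 0.11, adjusted p = 0.268), -0.35 (SE 0.14, adjusted p = 0.154) and 0.095 (SE 0.12, adjusted p = 0.748) in the authors' deposited tables and did not pass. Ctnnal1 fell at 2 weeks (-0.47, SE 0.12) and in the clone (-0.55, SE 0.12), Tjp1 fell at 2 weeks (-0.49, SE 0.17), and the plakoglobin gene Jup (2.83, SE 0.95) and the vinculin gene Vcl (0.99, SE 0.39) rose in the clone in the authors' deposited tables.

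Among transcription factors that repress or switch cadherins, 2 of 5 fell at 2 weeks, none of 6 passed at 5 weeks (1 had an unadjusted p under 0.05) and 1 of 5 fell in the clone, beside 8.99%, 5.51% and 25.9% of all such rows that passed. Zeb2, a zinc finger factor of melanocytes, stood at -0.46 (SE 0.094, adjusted p = 6.80e-05), -0.19 (SE 0.13, adjusted p = 0.678) and -0.60 (SE 0.12, adjusted p = 3.19e-06) at 2 weeks, 5 weeks and in the clone, and Tcf3 fell (-0.39, SE 0.11) in the sample of 2 weeks, in the authors' deposited tables. Snai2, another repressor of Cdh1, had SEs of 0.84 to 0.85 and did not pass in the authors' deposited tables.

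Genes of cadherin cleavage and turnover with values of their own had 1 of 10 higher and 1 lower at 2 weeks. At 5 weeks 1 of 10 was higher, and in the clone 3 of 10 were higher. Of all rows with values of their own, 8.99%, 5.51% and 25.9% passed at 2 weeks, 5 weeks and in the clone. Adam10, the main sheddase of Cdh1 and Cdh2 proteins and of gamma protocadherins, rose at 2 weeks (0.57, SE 0.16, adjusted p = 0.00767) and stood at -0.32 (SE 0.28) and 0.052 (SE 0.19) at 5 weeks and in the clone in the authors' deposited tables. Furin, whose product removes cadherin prodomains, fell at 2 weeks (-0.44, SE 0.14), and Psen2, of the gamma-secretase complex, rose at 5 weeks (0.58, SE 0.18) and in the clone (0.52, SE 0.14) in the authors' deposited tables. Capn1 (2.07, SE 0.29) and Adam15 (1.36, SE 0.24) rose in the clone in the authors' deposited table.

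Chromatin regulators of the protocadherin arrays, which loop distant enhancers to a chosen promoter or silence the others, passed in 1 of 17 cases at 2 weeks and 0 of 17 at 5 weeks (0 with an unadjusted p under 0.05), beside 8.99% and 5.51% of all such rows. In the authors' deposited table of 2 weeks the cohesin gene Rad21 fell (-0.29, SE 0.069, adjusted p = 8.62e-04). Smchd1, which silences the arrays, stood at -0.27 (SE 0.18), 0.0059 (SE 0.20) and -0.31 (SE 0.17, adjusted p = 0.232) at 2 weeks, 5 weeks and in the clone in the authors' deposited tables. The values listed for Ctcf, the looping factor, were shared with another symbol and did not pass.

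Of signalling partners of protocadherins, which include the WAVE complex that clustered and single members bind, 2 of 14 fell at 2 weeks, 1 of 14 rose at 5 weeks and 3 of 14 fell in the clone, with 8.99%, 5.51% and 25.9% of all such rows passing in either direction. The WAVE complex gene Cyfip2 fell at 2 weeks (-0.46, SE 0.13, adjusted p = 0.00541) and rose at 5 weeks (1.17, SE 0.18, adjusted p = 4.33e-08) in the authors' deposited tables. Rac1, the GTPase that activates the complex, fell at 2 weeks (-0.35, SE 0.066) and in the clone (-0.36, SE 0.078), and Abi1 (-0.42, SE 0.12) and Brk1 (-0.27, SE 0.098) fell in the clone in the authors' deposited tables. Other cadherin superfamily genes passed in 0 of 6 cases at 2 weeks (1 with an unadjusted p under 0.05), in 1 of 6 at 5 weeks and, in the clone, in 2 of 7, against the same background shares. Fjx1, which modifies the atypical Fat and Dachsous cadherins, fell at 5 weeks (-1.12, SE 0.25), and Fat2 rose in the clone (2.63, SE 0.54), as did Ret with an SE above 1 (adjusted p = 0.0168), in the authors' deposited tables.

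Desmosome and epithelial junction genes had 2 members with values of their own in each table and neither passed at any point. Their unadjusted p-values under 0.05 numbered 0, 1 and 0 at 2 weeks, 5 weeks and in the clone. Of this list's members with shared values, 1 passed, lower, in each comparison. All 7 melanocyte markers had a row in every table, and of 6 with values of their own 4 rose at 2 weeks, 5 rose at 5 weeks, and 2 rose and 1 fell in the clone. Of the melanocyte markers with shared values, 1 passed, lower, at 5 weeks, and none passed at 2 weeks or in the clone. Of markers of keratinocytes, fibroblasts and endothelium, none had values of its own in any table. The immune marker Lyz2 rose at 5 weeks (3.47, SE 0.70) and in the clone (2.78, SE 0.64) in the authors' deposited tables, the 2 samples in which Pcdhb16, Pcdhb17 and Pcdhb19 fell, and its part in these results was not tested. The neuron marker Tubb3 fell in the same samples (-0.96, SE 0.24 and -1.67, SE 0.19) in the authors' deposited tables. The part of Tubb3-expressing cells in the member results was not tested. In the clone 3 of 11 commonly stable genes passed (2 higher, 1 lower), beside 0 of 11 in each UV sample, where 0 and 1 had an unadjusted p under 0.05 at 2 and 5 weeks. The background shares were 25.9% in the clone and 8.99% and 5.51% in the UV samples, so the clone's share of stable genes lay near its background. The genes were Ppia (1.10, SE 0.23), Sdha (0.30, SE 0.11) and Pgk1 (-1.42, SE 0.16) in the authors' deposited table.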

How the data were processed

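The authors deposited 1 table per comparison. Per the file headers, its columns are the gene symbol, the deposited log2 fold change, the deposited test statistic (called a score here) and the deposited p-value. The build GRCm38 is named in the submitters' processing notes. The aligner, counting and test are not given in the sources used here, and the depth per sample is unknown. Deposited mouse values have the control in the numerator: all 1357 genes with a row in a single mouse table had negative values and 0 had positive ones. Signs were therefore turned. Each deposited p-value equals the normal p, two-sided, of its score to within 5.0e-08, so dividing the log2 fold change by the score gave the SE. Each table lost 1 row that had no symbol, and the clone's lost 3 more that had no p-value. P-values were adjusted over 14648, 14821 and 15041 rows. Orai1 was not analysed here, and the clone's count for the chromatin regulators and the Schwann cell markers are not reported here.

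Members and lists were chosen with earlier results of these data known. Named genes were all members that passed in a comparison or a difference test, type I cadherins, members with shared values, up to 5 others per comparison of the largest change at an SE of at most 0.5, and up to 4 passing genes per other list; further genes are named to show values that did not pass and were chosen after their values were seen. The procedure was tested on simulated data. Alternatives were fold minimums of 2 and 1.5, a stricter adjusted p (under 0.01), a maximum SE of 0.5, shared symbols counted or counted once, and the median change of rows of SE at most 0.3 (precise rows) set to 0. Python 3.11.15, numpy 2.4.6, pandas 2.3.3, scipy 1.17.1 and matplotlib 3.10.9 were used.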

Additional observations from a re-analysis of the deposited data

Results flagged for a closer look

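Pcdhb16 is listed for a closer look because its change differed between the UV times by a test of the difference itself. It was lower at 5 than at 2 weeks by -0.76 on the log2 scale (SE 0.22, adjusted p = 0.0279) in the authors' deposited tables.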

How the results depend on the processing

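No paired analysis was possible because each condition had 1 sample and the tables hold comparisons alone. Of 210 values of named members under other settings, 194 kept direction and call. Part of this count was fixed in advance. A value that did not pass could not change at the stricter adjusted p, and only setting the median to 0 could turn a sign. At an adjusted p under 0.01, 12 lost the call. By Benjamini-Hochberg adjustment over all rows, Cdh2 at 5 weeks (adjusted p = 0.0543) and Pcdhgb1 in the clone (adjusted p = 0.0507) lost it with the median of precise rows set to 0, and Pcdhb5 at 5 weeks gained it with each distinct value counted once (adjusted p = 0.0463), from the authors' deposited tables. Cdh19 at 2 weeks, which did not pass, turned to 0.010 with the median of precise rows set to 0. Counts of passing members at 2 weeks went from 3 to 0 at 2-fold, 1 at 1.5-fold, 0 at an adjusted p under 0.01, and 5 with every symbol counted or each distinct value counted once. At 5 weeks they went from 3 to 1 at an adjusted p under 0.01 and to 5 with each distinct value counted once. The count differing between 5 and 2 weeks of UV went from 1 to 0 at 2-fold and 0 at an adjusted p under 0.01, and that between the clone and 5 weeks from 4 to 1 at an SE of at most 0.5. The clone's count of 18 and that against 2 weeks of UV stayed within 1.5 times under each alternative. Without replicates or depth, the SEs could not be checked.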

Other observations

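Both human tables, of 420 rows each, listed 2 protocadherin genes, PCDHB5 and PCDHB16, and no other cadherin or protocadherin. The mouse tables had 14648 to 15041 usable rows, so the absence of other members from the short human tables is not read as a result. In WM983 the deposited log2 value, whose direction is not stated, was 1.28 for PCDHB5 and 1.19 for PCDHB16 (deposited p = 5.0e-05 for each) in the authors' deposited table. In UACC257 these values were -0.45 (deposited p = 0.0792) and -0.27 (deposited p = 0.133) in the authors' deposited table. Symbols of human and mouse beta protocadherins with one number need not be counterparts.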
